A study of Juglans regia with 21 samples.

Results

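Transcripts of 9 seed storage globulin genes were followed in the developing pellicle of walnut (*Juglans regia*), the thin seed coat around the kernel. The genes were taken by gene ID from the 31425 genes of the deposited table, on the ground that their product names read legumin, 11S globulin, glutelin, vicilin-like, seed storage protein or 48-kDa glycoprotein precursor. By these names 6 genes are of the 11S type and 3 of the 7S type. All 9 passed the filter on low counts. Pellicle of the field-grown cultivar Xinwen179 had been collected at 7 ages counted in weeks from pollination, 8, 9, 11, 13, 15, 17 and 19 (named 8W to 19W), and its poly(A) RNA sequenced in 3 libraries an age, 21 in all. No treatment or genotype differed between the stages. Age cannot be told apart from the date and conditions of collection, or from any batch that went with them. Whether the replicates were different trees is not stated in the labels, and every p-value therefore reflects library-to-library spread that could be technical.

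Globulins are the main protein reserve of many seeds. They are made on the rough endoplasmic reticulum, folded there with the help of chaperones and protein disulfide-isomerases, and packed into protein storage vacuoles. The 11S legumins assemble as hexamers whose subunits are cleaved by vacuolar processing enzymes, and the 7S vicilins assemble as trimers. Both are built from cupin domains, both are known walnut allergens, and in dicot seeds their genes are switched on mainly in the embryo by the regulators ABI3, FUS3 and the LEAFY COTYLEDON factors. The pellicle is a maternal tissue that lies against the embryo's cotyledons.

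Library totals ran from 13144713 to 17878761 reads. Levels are read counts scaled to library size with edgeR's TMM factors (scaled CPM), given as mean ± SD with n = 3 libraries, and levels of different genes are set beside each other only as deposited FPKM, which is per length. Calls are those of edgeR's quasi-likelihood test at a Benjamini-Hochberg adjusted p under 0.05 over 21707 genes tested. Libraries of consecutive stages did not overlap, in either direction, for 59.6% (15W against 13W) to 73.0% (9W against 8W) of these genes. A lack of overlap was thus common over all genes. Pairs of libraries within a stage differed by more than sampling noise, with a chi-square per degree of freedom between 3.13 and 28.1. That measure takes in the globulin genes themselves, so it is not independent of their levels. The widest gaps were those of 11W replicate 1 to the other libraries of its stage (21.7 and 28.1) and of 13W replicate 3 to those of its stage (10.4 and 13.4). Both are the globulin-richest libraries of their stage, and results that rest on them are also given without them.

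The samples were checked for seed coat markers. Of 33 genes named for seed coat functions, 31 had reads, some of them 1 read in all, and 24 passed the filter on low counts. At 19W against 8W, 4 of the 24 rose and 14 fell (all genes: 39.0% rose, 38.8% fell). The 2 genes of the list with most reads, described next, were among those that rose, by 1.03 and 1.97 on the log2 scale. They thus do not stand for most of the list. The homologue of AGL11 (Jr2DG00016900), a MADS-box factor of ovule and seed coat identity, had its lowest mean at 9W, 329 ± 25.3 CPM, and its highest at 19W, 936 ± 62.7 CPM. An anthocyanidin reductase (Jr5DG00075400), which makes precursors of the tannins of seed coats, ranged from 29.9 ± 0.449 CPM (17W) to 146 ± 25.2 CPM (19W).

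The summed globulin level was far higher in all libraries of 11W than in those of 9W. Its mean was lower at 13W to 17W, although the 13W libraries overlapped with those of 11W, and was high again at 19W. The sum of the 9 genes was 294, 154 and 216 CPM in the 8W libraries and 902, 752 and 1075 CPM in those of 9W. At 11W it was 26178, 13951 and 12212 CPM, so that replicate 1 held about as much as the other libraries together. At 13W it was 4276, 6509 and 14422 CPM, with replicate 3 far above the rest. The 15W libraries stood at 8807, 11966 and 8683 CPM and those of 17W at 4397, 4825 and 2798 CPM. The 19W libraries stood at 22469, 22154 and 17719 CPM, close to each other in relation to the gap from 17W.

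By stage mean the order was 19W (20781 ± 2656 CPM), 11W (17447 ± 7611), 15W (9819 ± 1861), 13W (8402 ± 5332), 17W (4007 ± 1069), 9W (910 ± 162) and 8W (221 ± 69.9). Libraries of 19W and 11W overlapped, as did those of 15W and 13W and those of 13W and 17W. Those of 11W and 13W overlapped too, 13W replicate 3 lying above 11W replicates 2 and 3. Those of 17W, 9W and 8W were separate from each other. Without 11W replicate 1 the mean of 11W was 13110 CPM, and without 13W replicate 3 that of 13W was 5404 CPM. As a share of all reads the 9 genes took 0.0247% ± 0.00795 in the 8W libraries and 1.79% ± 0.751 in those of 11W, then 0.381% ± 0.0980 at 17W before 1.83% ± 0.228 at 19W. The highest single library was 11W replicate 1 with 2.64%. In RNA from whole tissue, more cells of a type that carries these transcripts and more transcript per cell cannot be told apart.

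**Figure D1:**
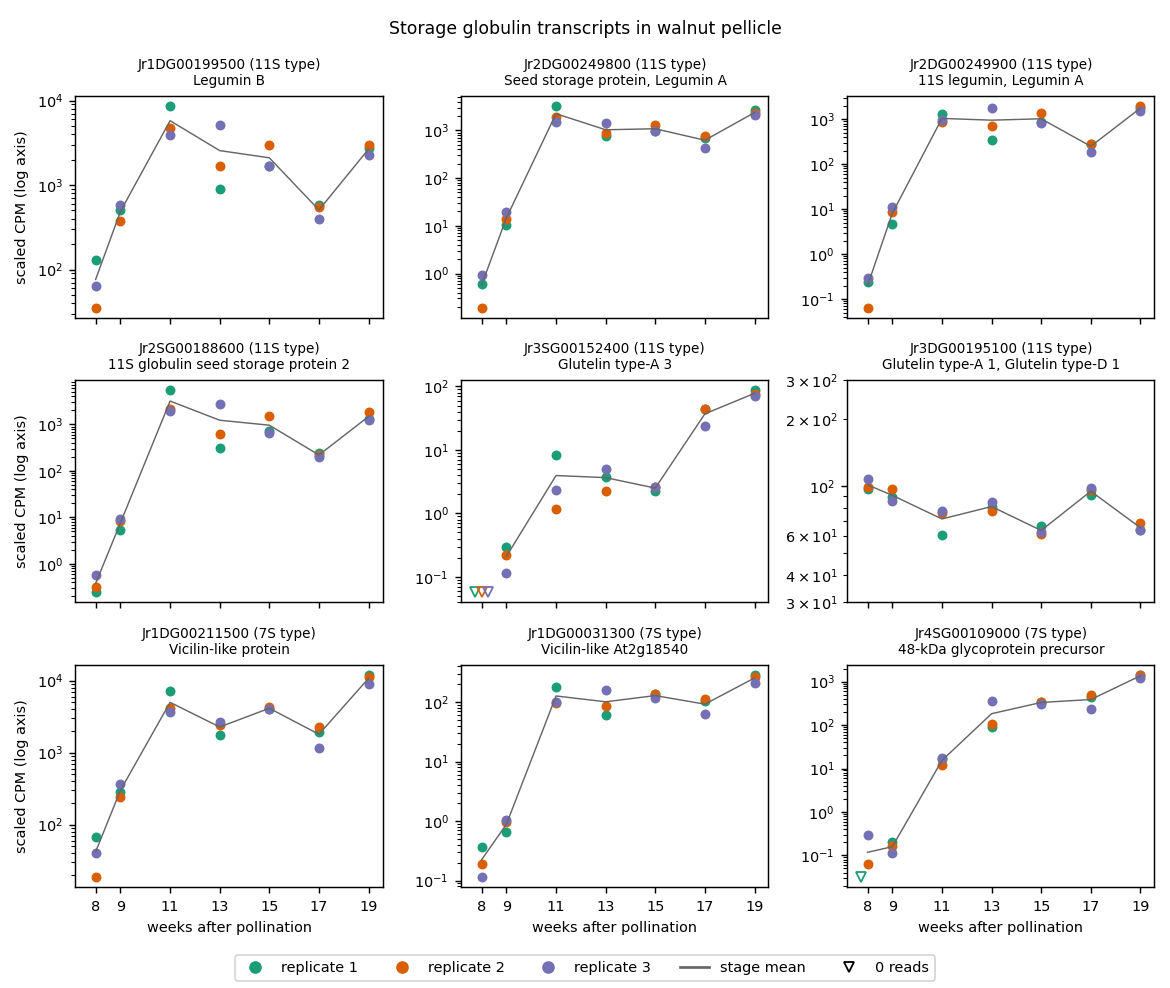
Scaled CPM (log axis, scale set per panel) of each of the 9 globulin genes against weeks after pollination, with 1 point per library, coloured by replicate number, and a line through the stage means; open triangles are libraries with 0 reads. In 8 panels the libraries of 11W to 19W lie above those of 8W, while Jr3DG00195100 stays between 60.3 and 108 CPM throughout. At 19W against 8W the libraries of 80.4% of all genes tested did not overlap, in either direction.

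Among the 11S genes, Legumin B (Jr1DG00199500, chromosome 1D, 39393163 to 39395285) had the highest mean FPKM of the 9 genes at 9W, 11W and 13W. A legumin precursor is cleaved into an acidic and a basic chain, which stay linked in the 11S hexamer. Its transcript was already present at 8W, at 129, 35.2 and 64.6 CPM, and its 9W libraries read 502, 378 and 582 CPM. At 11W the libraries read 8696, 4695 and 3946 CPM, the highest mean of any stage. They did not overlap with those of 19W, the next by mean, but 13W replicate 3 lay above the lower pair of them. The rise from 8W to 9W was 2.67 on the log2 scale (SE 0.59, adjusted p = 0.00105) and that from 9W to 11W was 3.57 (SE 0.61, adjusted p = 0.000103).

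At 13W Legumin B read 899, 1665 and 5108 CPM, a range that took in all the 15W libraries (1693, 2940 and 1669 CPM) and all of 19W (2725, 3017 and 2258 CPM). It fell from 15W to 17W, where the libraries read 576, 549 and 395 CPM (log2 change -2.05, SE 0.57, adjusted p = 0.00613). The 17W libraries overlapped with those of 9W. It rose again to 19W by 2.396 (SE 0.58, adjusted p = 0.00265), yet 19W stayed below all 3 libraries of 11W.

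A pair of legumin A genes lies side by side on chromosome 2D, with 10805 bases and 0 annotated genes between them: Jr2DG00249800 (41852333 to 41859603) and Jr2DG00249900 (41870409 to 41872618). If their sequences are near-identical, the authors' counting could split reads between them, so their separate values are less certain. At 8W they held 10, 3 and 16 reads and 4, 1 and 5 reads, against 2127, 552 and 1123 reads of Legumin B. At 11W Jr2DG00249800 read 3281, 1899 and 1511 CPM and Jr2DG00249900 read 1302, 874 and 940 CPM. Both rose at each of the early steps. From 9W to 11W the log2 change was 7.26 (SE 0.42, adjusted p = 5.04e-10) for Jr2DG00249800 and 7.02 (SE 0.59, adjusted p = 5e-08) for Jr2DG00249900.

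The pair did not keep a fixed ratio. In FPKM, Jr2DG00249900 stood at 0.671 to 1.05 times Jr2DG00249800 in the 11W libraries, at 1.43 to 1.78 times in those of 15W, at 0.623 to 0.753 times in those of 17W and at 1.14 to 1.46 times in those of 19W. From 15W to 17W Jr2DG00249900 fell by 2.03 (SE 0.45, adjusted p = 0.00118). Jr2DG00249800 fell by 0.80 (SE 0.32, adjusted p = 0.0396), a call lost with DESeq2 (adjusted p = 0.0731), without a filter on low counts (0.0532) and on leaving out any of several libraries. The difference between the pair's changes was not tested. Both rose to their highest stage mean at 19W, 2357 ± 293 and 1762 ± 255 CPM, where the libraries of Jr2DG00249800 overlapped with those of 11W and the libraries of Jr2DG00249900 did not.

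The 11S globulin 2 gene (Jr2SG00188600, chromosome 2S, 35708478 to 35710805) went with Legumin B in having its highest mean at 11W. It held 4, 5 and 10 reads at 8W and 5.22, 8.25 and 9.44 CPM at 9W. At 11W it read 5452, 2188 and 1931 CPM, a log2 change of 8.71 over 9W (SE 0.89, adjusted p = 5.11e-07), the largest step of any member between consecutive stages. It had the widest libraries of the group at 13W, 306, 628 and 2763 CPM. It then fell from a 15W mean of 964 ± 492 CPM to one of 220 ± 18.7 CPM at 17W (log2 change -2.13, SE 0.65, adjusted p = 0.0103), and rose to 1482 ± 331 CPM at 19W (2.75, SE 0.66, adjusted p = 0.00253). Without 15W replicate 2 its fall to 17W had an adjusted p of 0.0554.

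A gene annotated as glutelin type-A 3 (Jr3SG00152400, chromosome 3S, 26147140 to 26149308, minus strand) had a low level up to 15W. Glutelins are the 11S-type storage proteins of rice. It had 0 reads in all 3 libraries of 8W and 6, 4 and 2 reads in those of 9W. It rose from 9W to 11W by 4.14 (SE 0.88, adjusted p = 0.000924). At 11W, 13W and 15W its means were 3.95 ± 3.84, 3.66 ± 1.38 and 2.50 ± 0.183 CPM, with overlapping libraries. It rose between 15W and 17W, to 44.1, 43.7 and 23.4 CPM (log2 change 3.88, SE 0.49, adjusted p = 1.05e-05), while the other 4 11S genes described so far fell.

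At 19W Jr3SG00152400 read 87.3, 75.5 and 71.1 CPM, all above 17W. The rise from 17W was 1.07 (SE 0.37, adjusted p = 0.0240), a call lost with DESeq2 (adjusted p = 0.0900). In edgeR it was also lost without 17W replicate 3 (adjusted p = 0.0949), 19W replicate 1 (0.0732) or 19W replicate 2 (0.0534). Against a floor of 3 reads per library at 8W, the 17W mean was at least 194-fold higher and the 19W mean at least 408-fold higher. The floor covers counting error only.

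The remaining 11S-type gene (Jr3DG00195100, named glutelin type-A 1 in NR and glutelin type-D 1 in Swiss-Prot, chromosome 3D, 30796252 to 30799467) behaved unlike the other 8. At 8W, its highest stage, it read 96.8, 99.5 and 108 CPM, while the 19W libraries read 63.4, 68.1 and 63.6 CPM. It fell by 0.64 from 8W to 19W (SE 0.08, adjusted p = 1e-07), where the other 8 rose. It fell from 9W to 11W (log2 change -0.35, SE 0.08, adjusted p = 0.000408), from 13W to 15W (-0.36, SE 0.08, adjusted p = 0.000655) and from 17W to 19W (-0.55, SE 0.08, adjusted p = 3.83e-06), and rose from 15W to 17W (0.59, SE 0.08, adjusted p = 9.97e-07). A rise of 0.18 from 11W to 13W (SE 0.08, adjusted p = 0.0438) was lost under RLE size factors (0.0607), DESeq2 (0.0744) and other settings. In edgeR that rise was 0.05 without 11W replicate 1 (adjusted p = 0.585) and 0.15 without 13W replicate 3 (adjusted p = 0.145). All libraries of Jr3DG00195100 lay between 60.3 and 108 CPM.

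Among the 7S genes, the vicilin-like gene Jr1DG00211500 (chromosome 1D, 41242612 to 41245920) was the most abundant. It is the only gene of the table with the vicilin N-terminal Pfam domain PF04702. Its 8W libraries read 66.3, 18.8 and 40.9 CPM and its 9W libraries 288, 245 and 367 CPM, a rise of 2.83 (SE 0.39, adjusted p = 1.19e-05). At 11W it read 7182, 4108 and 3687 CPM, a further rise of 4.06 (SE 0.40, adjusted p = 3.02e-07). The libraries of the 3 stages did not overlap.

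The vicilin-like transcript then fell to 2268 ± 484 CPM at 13W (log2 change -1.14, SE 0.36, adjusted p = 0.0116) and stood at 4129 ± 190 CPM at 15W (0.86, SE 0.36, adjusted p = 0.0570). The fall to 13W had an adjusted p of 0.0695 without 11W replicate 1. The 15W difference passed the threshold with DESeq2 (adjusted p = 0.0397). At 17W it fell to 1935, 2292 and 1169 CPM (-1.20, SE 0.36, adjusted p = 0.00980). It rose again to 12050, 11143 and 9058 CPM at 19W, its highest level (2.58, SE 0.38, adjusted p = 3.23e-05), with no overlap with any other stage.

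The gene named vicilin-like At2g18540 (Jr1DG00031300, chromosome 1D, 3700647 to 3703658), whose product name adds that the protein is partial, followed the same outline at a lower level. It held 6, 3 and 2 reads at 8W and 0.882 ± 0.206 CPM at 9W. It rose to 180, 97.7 and 101 CPM at 11W (log2 change 7.16, SE 0.51, adjusted p = 6.28e-09). Its libraries of 11W, 13W and 15W overlapped, with means of 126 ± 46.9, 101 ± 50.9 and 128 ± 10.01 CPM. All 17W libraries (92.1 ± 26.2 CPM) lay below all of 15W, a difference that did not pass the test (-0.48, SE 0.31, adjusted p = 0.201). At 19W it rose to 253 ± 38.5 CPM (1.46, SE 0.31, adjusted p = 0.00105).

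The 48-kDa glycoprotein precursor gene (Jr4SG00109000, chromosome 4S, 14129021 to 14131427) was the late member of the 7S type. A hazelnut seed protein of that name is a vicilin. The 8W libraries held 0, 1 and 5 reads and the 9W libraries 4, 3 and 2 reads, and at 11W the level was 16.6, 12.3 and 17.1 CPM. The rise from 9W to 11W was 6.51 (SE 0.97, adjusted p = 2.79e-05). It rose again between 11W and 13W, to 90.2, 106 and 352 CPM (3.57, SE 0.46, adjusted p = 5.54e-06), at a step where no other 7S gene rose.

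The 15W libraries of Jr4SG00109000 read 346, 338 and 313 CPM and those of 17W 441, 484 and 238 CPM, so that the libraries overlapped across these stages. The difference between 15W and 17W was 0.22 (SE 0.39, adjusted p = 0.647). It rose to 1442, 1437 and 1223 CPM at 19W (1.82, SE 0.40, adjusted p = 0.00121). Without 13W replicate 3 the step from 13W to 15W was 1.76 with an adjusted p of 1.67e-05, against 0.86 with an adjusted p of 0.0801 in all libraries.

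All 9 genes differed between the 7 stages in the F-test, as did 97.7% of all genes tested, so that count says little about globulins. From 8W to 9W, 5 globulin genes rose and 0 fell, while 34.4% of all genes rose, 31.1% fell and 65.5% did either. Members and all genes differed in the size of the change. The members' median log2 change was 2.83, or 2.67 with Jr3SG00152400 set to its bound, against 0.04 over all genes. The members not called were Jr3SG00152400, Jr4SG00109000, Jr1DG00031300 and Jr3DG00195100. The former 3 held at most 49 reads over the 3 libraries of either stage. With DESeq2, 7 members were called, Jr3SG00152400 (adjusted p = 0.00397) and Jr1DG00031300 (adjusted p = 0.00208) among them. Without 8W replicate 1 the rise of Jr2SG00188600 had an adjusted p of 0.0506 in edgeR.

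From 9W to 11W, 8 globulin genes rose and 1 fell, against 34.3% of all genes that rose, 31.6% that fell and 65.9% that did either. The members' median change was 6.51, against 0.02 over all genes. From 11W to 13W the group split. The vicilin-like gene and Jr2DG00249800 fell, Jr4SG00109000 and Jr3DG00195100 rose, and the other 5 were not called, while 32.1% of all genes rose, 35.0% fell and 67.1% did either. The median was -0.32 for the members and -0.04 for all genes.

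The count for 11W to 13W turned on single libraries. It was 4 with all libraries, 2 without 11W replicate 1, 2 without 13W replicate 1 and 7 without 13W replicate 3. Without 13W replicate 3, Legumin B (log2 change -2.17, adjusted p = 0.00174), Jr2SG00188600 (-2.77, adjusted p = 0.000245), Jr2DG00249900 (-1.002, adjusted p = 0.0146) and Jr1DG00031300 (-0.80, adjusted p = 0.0201) were also called as falls. The rise of Jr3DG00195100 was not called in that fit (adjusted p = 0.145 in edgeR). With both 11W replicate 1 and 13W replicate 3 left out, Legumin B (-1.75, adjusted p = 0.00792) and Jr2SG00188600 (-2.14, adjusted p = 0.000594) remained past the threshold.

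From 13W to 15W, Jr3DG00195100 fell and 0 members rose, against 24.8% of all genes that rose, 26.3% that fell and 51.1% that did either. The median change was 0.07 for the members and -0.02 for all genes. The count of 1 became 2 with DESeq2, 2 in a fit of the 6 libraries of these stages alone, 2 on leaving out 8W replicate 1, 8W replicate 2, 11W replicate 1 or 17W replicate 3, 4 without 13W replicate 3 and 6 without both 13W replicate 3 and 11W replicate 1. The wide spread of the 13W libraries thus limits what the steps into and out of 13W can show.

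From 15W to 17W, 5 globulin genes fell and 2 rose, against 30.8% of all genes that fell, 29.3% that rose and 60.1% that did either. The falls were those of Legumin B, both legumin A genes, Jr2SG00188600 and the vicilin-like gene, and the rises those of both glutelin-named genes. The median change was -0.80 for the members and -0.03 for all genes.

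From 17W to 19W, 8 globulin genes rose and Jr3DG00195100 fell, against 28.5% of all genes that rose, 26.1% that fell and 54.5% that did either. The call for Jr3SG00152400 was lost with DESeq2 and on leaving out certain single libraries. The median was 1.93 for the members and 0.02 for all genes. Between the ends of the series, 19W against 8W, the same 8 genes rose and Jr3DG00195100 fell, against 39.0% of all genes that rose, 38.8% that fell and 77.8% that did either. The median was 11.88, or 10.10 with Jr3SG00152400 at its bound, against -0.01 over all genes. The ratio of mean CPM at 19W to that at 8W was 34.9 for Legumin B and 256 for the vicilin-like gene, the members with ample reads at 8W that rose.

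**Figure D2:**
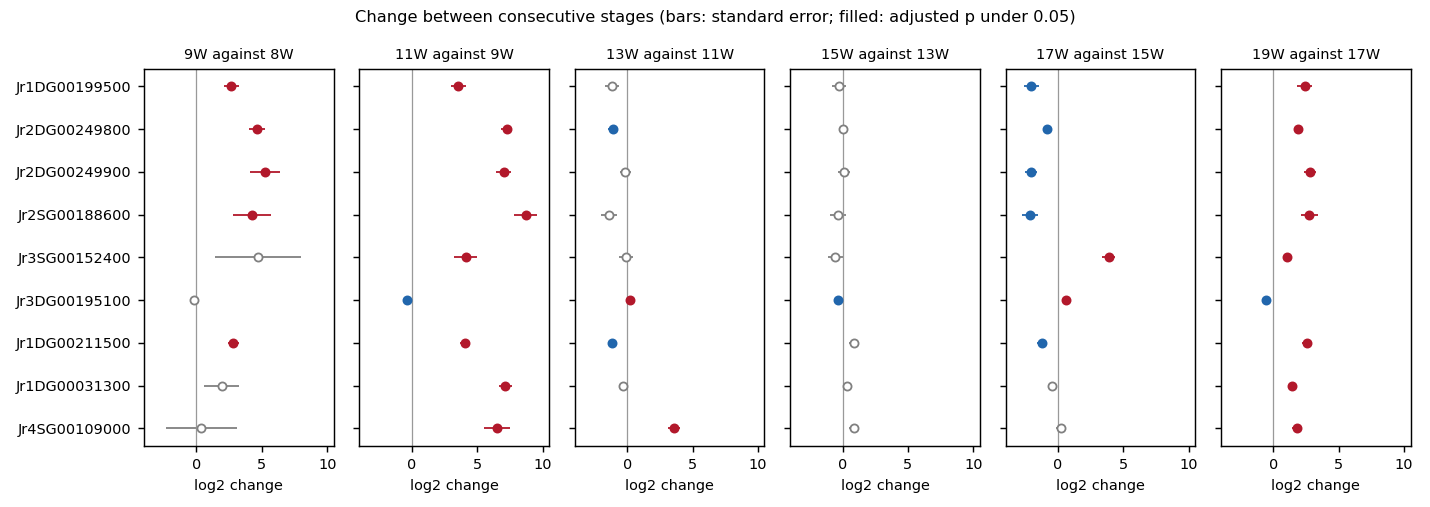
Log2 change of each globulin gene at the 6 steps between consecutive stages (points) with its standard error (bars), filled red for a rise and blue for a fall at an adjusted p under 0.05 and open otherwise. The steps 9W to 11W and 17W to 19W hold 8 rises and 1 fall each, and the step 13W to 15W holds 1 fall.

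Per length, the make-up of the globulin transcripts moved from legumin towards vicilin. In FPKM at 8W, Jr3DG00195100 stood at 59.05 ± 2.65, Legumin B at 54.4 ± 34.8 and the vicilin-like gene at 17.9 ± 10.3, and every other member had a mean under 0.3. At 9W Legumin B made up 63.5% ± 2.97 of the summed globulin FPKM and the vicilin-like gene 23.5% ± 0.892. At 11W Legumin B led with 3776 ± 1611 FPKM, before Jr2SG00188600 with 2025 ± 1214 and the vicilin-like gene with 1954 ± 717. At 19W the vicilin-like gene led with 3629 ± 504 FPKM, 43.3% ± 2.01 of the sum, and Legumin B followed with 1503 ± 212 FPKM, 18.0% ± 0.814 of it.

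The 3 genes of the 7S type together made up 13.0% ± 3.65 of the summed globulin FPKM in the 8W libraries. Their share was 23.6% ± 0.900 at 9W, 22.8% ± 1.40 at 11W, then 29.4% ± 10.8 among the 13W libraries. It reached 40.5% ± 6.52 at 15W before 52.5% ± 4.19 at 17W, and the 19W mean was 53.7% ± 2.13. All libraries of 17W and 19W lay above all of the earlier stages. The ratio of Legumin B to the vicilin-like gene, in FPKM, was 2.57 to 3.25 in the libraries of 8W and 9W, 1.79 to 2.02 at 11W and 0.378 to 0.564 at 17W and 19W.

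The 13W libraries did not share a make-up. The 7S share of the FPKM was 38.2% in replicate 1, 32.7% in replicate 2 and 17.2% in replicate 3, the last below all libraries of 9W and 11W. The ratio of Legumin B to the vicilin-like gene was 0.865, 1.16 and 3.18 in the same order. The globulin-rich replicate 2 of 15W leaned the same way, with a 7S share of 32.9% against 43.7% and 44.7% in the other libraries of 15W.

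**Figure D3:**
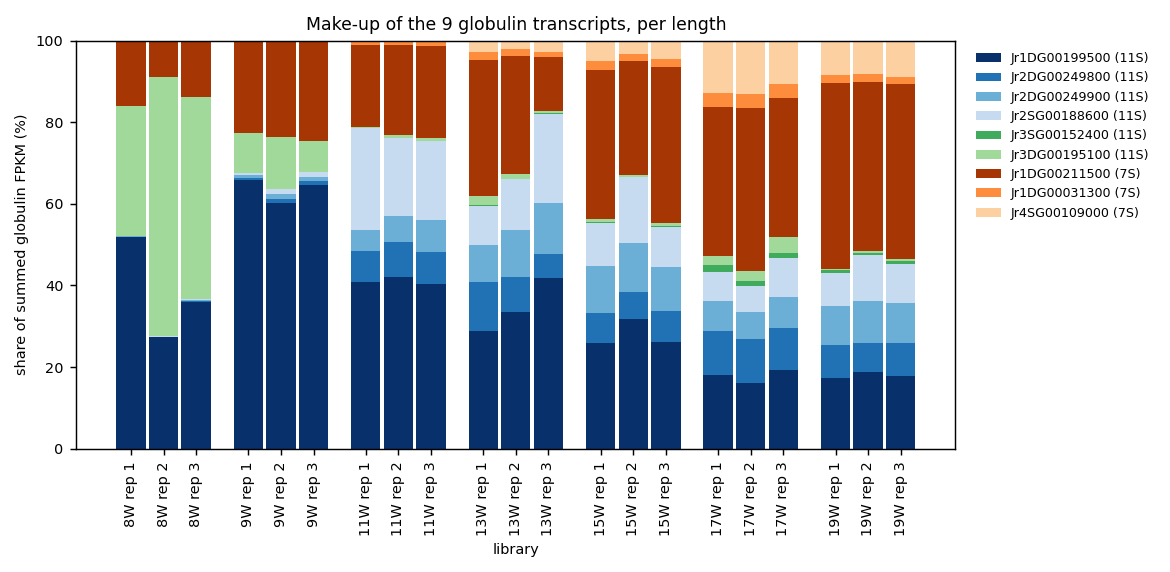
Share of the summed FPKM of the 9 globulin genes taken by each gene, 1 stacked bar per library, 11S genes in blues and greens and 7S genes in browns and oranges. The 7S part is 8.96% to 24.5% in the libraries of 8W to 11W and 48.2% to 56.5% in those of 17W and 19W, and 13W replicate 3 has less of it than the other 13W libraries.

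In most stages, most globulin transcripts with at least 10 CPM varied more between libraries than the median gene did. The members were chosen with earlier results of these data known, so these ranks describe them and test nothing. The coefficient of variation (CV, the SD over the mean) of Legumin B at 8W was 63.0% and that of the vicilin-like gene 56.6%. Among the 13321 genes with at least 10 CPM at that stage, 0 had a larger CV than Legumin B, and the median was 6.07%. At 13W the CV was 108% for Jr2SG00188600, 87.7% for Legumin B, 80.7% for Jr2DG00249900 and 80.3% for Jr4SG00109000, against a median of 6.03% over 12992 genes. Among those genes 1 had a larger CV than Jr2SG00188600.

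Over all stages, edgeR's biological coefficient of variation was 0.534 for Jr2SG00188600, 0.460 for Legumin B, 0.437 for Jr3SG00152400, 0.399 for Jr2DG00249900 and 0.383 for Jr4SG00109000. It was 0.310 for the vicilin-like gene, 0.294 for Jr2DG00249800 and 0.291 for Jr1DG00031300, and the median over all genes tested was 0.103. Jr3DG00195100 was again the exception, at 0.0693, below 80.3% of the genes tested. The spread was not equal across stages. At 15W the vicilin-like gene had a CV of 4.60% and Jr4SG00109000 of 5.05%, below the stage's median of 6.29%. Jr2SG00188600 had 51.0% at 15W, but 8.49% at 17W, where the median was 7.18%.

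At 11W and 13W the libraries high in 1 globulin gene tended to be high in others. At 11W replicate 1 was the highest library for 7 of the 9 genes, all but Jr3DG00195100, where it was the lowest, and Jr4SG00109000, where replicate 3 was. At 13W replicate 3 was the highest library for all 9 genes. The size of the gap differed between genes. Replicate 3 of 13W stood over replicate 1 by a factor of 9.03 for Jr2SG00188600, 5.68 for Legumin B, 5.22 for Jr2DG00249900 and 3.904 for Jr4SG00109000, but by 1.55 for the vicilin-like gene and 1.05 for Jr3DG00195100. Jr3DG00195100 had its libraries in the reverse order of the other 8 genes' sum at 9W and 11W. Over the 7 stages the match was partial. The highest library was that of the other 8 genes' sum in 1 (Jr3DG00195100) to 6 stages (vicilin-like gene and Jr1DG00031300). The full order matched in 0 (Jr3DG00195100) to 5 stages (Legumin B and vicilin-like gene). At 19W Legumin B, Jr2DG00249900 and Jr2SG00188600 were highest in replicate 2, but the vicilin-like gene in replicate 1.

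**Figure D4:**
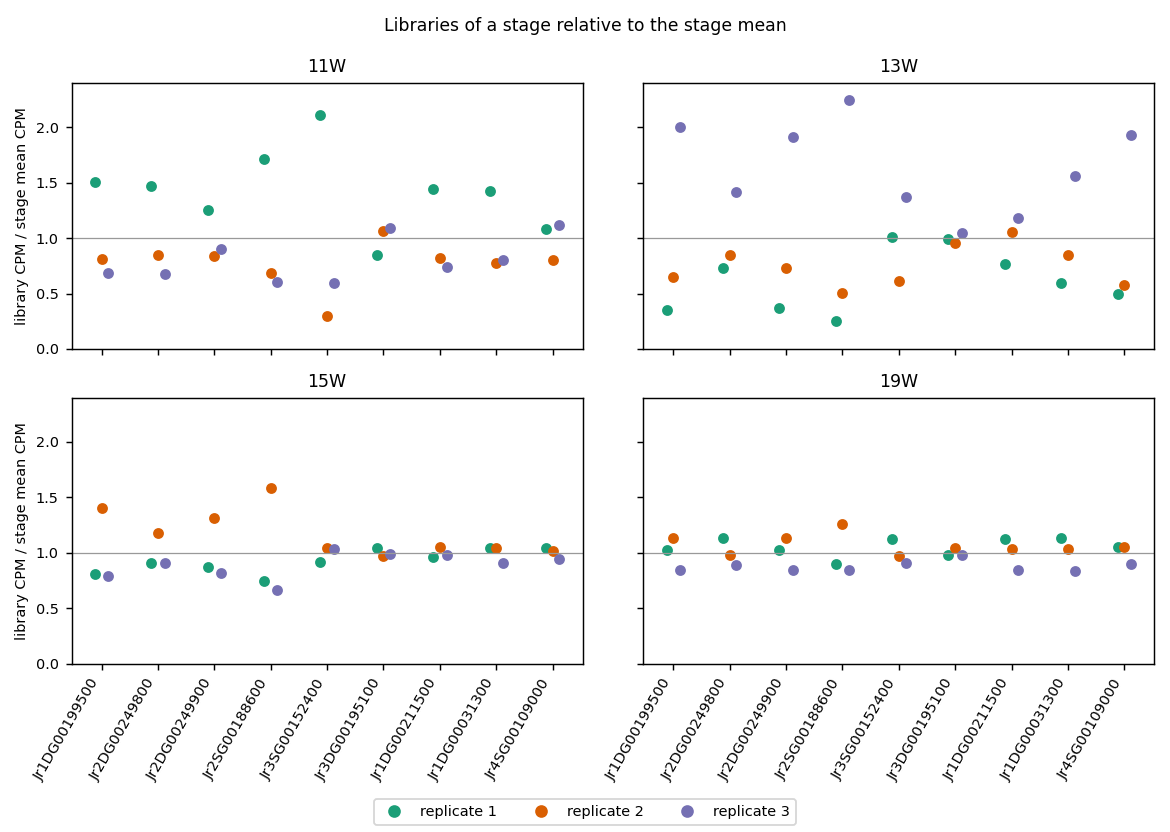
Level of each globulin gene in each library divided by its stage mean (both in scaled CPM), at 11W, 13W, 15W and 19W, with points coloured by replicate number and a grey line at the stage mean. Replicate 1 stands out at 11W and replicate 3 at 13W, by different factors for different genes, and the 19W libraries lie close together.

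Genes of other seed reserve and embryo lists were taken by product name. Of 5 further genes with storage protein names, 4 had reads and 2 passed the filter, the vicilin-like antimicrobial peptides 2-2 (Jr7SG00083500) and a vicilin-like At2g28490 (Jr7SG00083600). Their means at 19W were 219 ± 28.9 and 181 ± 18.6 CPM, from 0.399 ± 0.133 and 0.426 ± 0.266 CPM at 8W, and both rose from 9W to 11W and from 15W to 17W.

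Of 10 oil body genes, 9 had reads and were tested, and 1 was at 0 in all libraries. Oleosins coat the oil bodies of seeds. At the step from 9W to 11W there were 8 rises and 1 fall (median log2 change 2.66), against 34.3% and 31.6% of all genes. The comparison of 19W against 8W gave 8 rises and 0 falls (median 6.93), against 39.0% and 38.8% of all genes. The list's sum was 83.5 to 98.98 CPM in the 8W libraries, 1121 to 1815 CPM in those of 11W and 2473 to 2645 CPM in those of 19W. The oleosin Jr4SG00041800 went from 2.403 ± 0.706 CPM at 8W up to 576 ± 15.8 CPM in the 19W libraries, and a gene named a calcium binding family protein, Jr3SG00057500, from 35.0 ± 1.75 to 425 ± 31.6 CPM. From 15W to 17W, where 5 globulin genes fell, 4 oil body genes rose and 1 fell (all genes: 29.3% rose, 30.8% fell).

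Of 23 late embryogenesis genes 21 had reads and 18 were tested. At 19W against 8W 15 rose and 1 fell (all genes: 39.0% rose, 38.8% fell). The list's sum went from 468 to 504 CPM in the 8W libraries to 5188 to 5565 CPM in those of 19W. The dehydrins, proteins of drying cells, led it: Jr4DG00147900 (dehydrin ERD14) had 301 ± 11.8 CPM in the 8W libraries and 2396 ± 45.8 CPM in those of 17W, and dehydrin 2 (Jr4SG00068600) had 126 ± 7.41 and 1515 ± 64.0 CPM. From 15W to 17W, where 5 globulin genes fell, 11 of the 18 rose and 2 fell (all genes: 29.3% rose, 30.8% fell).

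All 12 genes of the seed maturation regulator list were tested. The list also holds genes named VAL1 or VAL2 repressors. These are Jr5DG00208300, Jr7DG00060000 and Jr7SG00052600, which rose from 9W to 11W by 0.29, 0.27 and 1.35 on the log2 scale. Of the 12, 10 rose and 1 fell between 9W and 11W, and 3 rose and 8 fell between 11W and 13W. Between 15W and 17W 3 rose and 7 fell, and between 17W and 19W 10 rose and 0 fell. Over all genes the shares that rose and fell at these steps were 34.3% and 31.6%, 32.1% and 35.0%, 29.3% and 30.8%, and 28.5% and 26.1%. The fall from 9W to 11W was that of Jr6DG00202000, named nuclear factor Y subunit B-9-like (log2 change -3.98). The leafy cotyledon1-like Jr5SG00080800 rose there by 1.11. The sum of the list was 816 to 1275 CPM at 11W, with the highest value in replicate 1, 299 to 360 CPM at 17W and 750 to 800 CPM at 19W. The ABI3 gene Jr2DG00137500, an activator of storage protein genes in Arabidopsis, had a mean of 6.23 ± 2.67 CPM at 8W, then 223 ± 74.6 CPM in the 11W libraries, 52.0 ± 13.2 CPM in those of 17W and 135 ± 12.1 CPM in those of 19W. The ABI5-like gene Jr5SG00008200, a bZIP factor of abscisic acid response, had 59.3 ± 5.81 CPM at 8W, 238 ± 18.6 CPM at 15W, its highest stage, and 26.9 ± 2.29 CPM at 17W.

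Of 32 genes named for protein folding, sorting or cleavage, of the kinds that handle storage proteins, 30 were tested. Matched by name, they include a chloroplast protein disulfide isomerase (Jr1DG00119600), so the list is not confined to storage protein handling. At 19W against 8W 10 rose and 18 fell (median log2 change -0.47), against 39.0% and 38.8% of all genes. The protein disulfide-isomerase Jr8SG00066800 had 1085 ± 66.5 CPM in the 8W libraries and 750 ± 48.1 CPM in those of 19W. The vacuolar-processing enzyme Jr8SG00028300, of the family that cleaves 11S subunits, stood at 457 ± 8.89 and 720 ± 2.99 CPM. Between 9W and 11W 9 of the 30 rose and 10 fell, shares near the 34.3% and 31.6% of all genes.

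Of the 24 seed coat genes tested, 4 rose and 15 fell between 9W and 11W (all genes: 34.3% rose, 31.6% fell). Their sum was 807 to 872 CPM in the 9W libraries, 610 to 724 CPM in those of 11W, with the lowest value in replicate 1, and 1186 to 1366 CPM in those of 19W. The AGL11 homologue alone, with 936 ± 62.7 CPM, made up most of the sum at 19W, so the sum does not follow the majority of the list. Of 12 endosperm genes 10 had reads and 3 were tested. Their sum was 46.0 to 95.1 CPM in the 11W libraries, the lowest in replicate 1, and 2.39 to 3.11 CPM in those of 19W. The endosperm genes with most reads, the bHLH95 genes Jr3SG00170900 and Jr3DG00007900, stood at 2.14 ± 0.344 and 0.186 ± 0.0941 CPM at 19W.

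Within stages, the order of the libraries was compared between lists. The 3 libraries of a stage stood in the same order for the oil body sum as for the globulin sum in 6 of 7 stages, all but 15W. The count was 5 for the other storage proteins, 4 for late embryogenesis, 4 for storage protein handling, 3 for the regulators, 1 for seed coat and 1 for endosperm. Oil body sums spread less than globulin sums: at 13W their highest library stood 1.29 times over the lowest, against 3.37 times for the globulins. The part of cells of the kernel, or of embryo RNA carried with the pellicle, in the globulin levels was not tested.

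**Figure D5:**
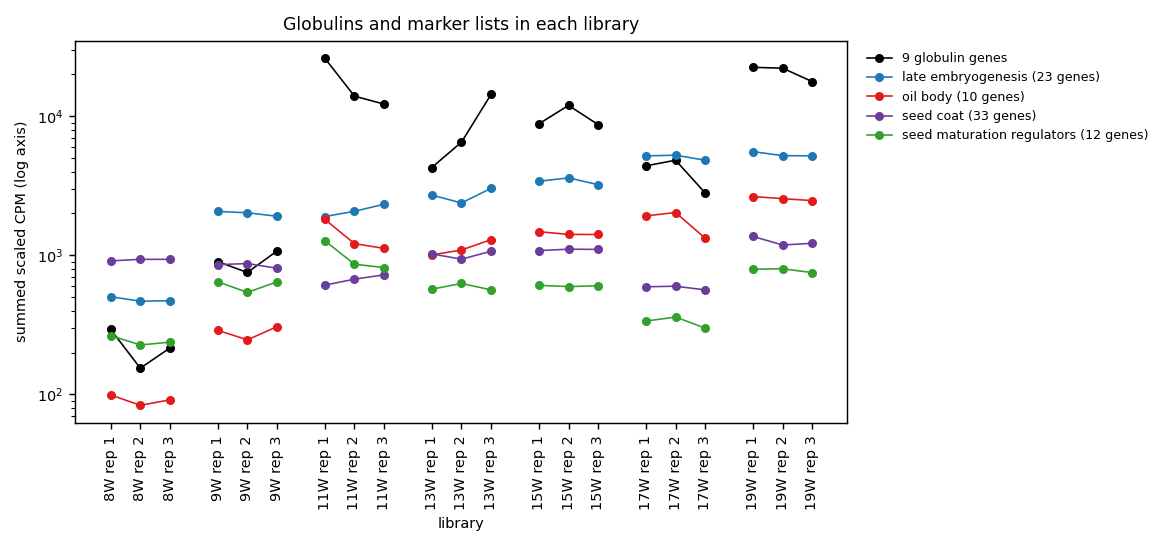
Summed scaled CPM (log axis) of the 9 globulin genes and of 4 gene lists in each of the 21 libraries, with points of a stage joined. The globulin sum spans 154 to 26178 CPM, the oil body sum 83.5 to 2645 CPM, and 11W replicate 1 is the highest library of its stage for globulins, oil body genes and regulators and the lowest for seed coat genes.

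Across the table, 16240 genes outside the group reached a mean of 10 CPM in some stage, and for these the number of stages with the same library order as the globulin sum was counted. The order was the same in 7 stages for 0 genes, in 6 stages for 9 genes and in 5 stages for 71 genes, and 4476 genes shared it in 0 stages. The measure rests on 3 libraries per stage and takes no account of the size of the gaps. How many stages would match by chance was not worked out, for these genes or for the lists above. The genes named here are therefore only those with the highest counts. The 9 genes were a cytosolic phosphoglucomutase (Jr3DG00182200), an oleosin (Jr2DG00039300), a delta(24)-sterol reductase (Jr3SG00069000), a pyruvate kinase isozyme A (Jr1DG00207500), a MACPF domain gene (Jr3DG00004200), a polybromo-1-like gene (Jr5DG00089100), a glucose-6-phosphate dehydrogenase (Jr3SG00118700), a replication protein A subunit (Jr6DG00053000) and a HIPL1 gene (Jr6DG00033800). The most abundant gene with 5 stages was a cytosolic fructose-bisphosphate aldolase (Jr5SG00005300).

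Their levels over the stages were unlike each other. The oleosin Jr2DG00039300 also had its highest mean at 11W, with 13.0 ± 5.35 CPM in the 8W libraries and 550 ± 202 CPM in those of 11W, 98.2 ± 44.6 CPM at 13W and, at 19W, 323 ± 21.2 CPM. The phosphoglucomutase, which links sucrose breakdown to starch and glycolysis, had 194 ± 7.83 CPM at 8W, its lowest mean, and 608 ± 52.4 CPM at 19W, its highest. The sterol reductase was highest at 9W (119 ± 8.98 CPM), the pyruvate kinase at 11W (55.0 ± 15.4 CPM) and the aldolase at 11W (912 ± 107 CPM). The remaining 5 had stage means of at most 43.6 CPM.

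The 9 globulin genes share the cupin domain PF00190 with 32 other genes of the table. Most of these are germin-like proteins, extracellular enzymes of the same fold. Of the 32, 13 were tested, and at 19W against 8W 6 rose and 6 fell (median log2 change -0.09). Between 9W and 11W 3 rose and 6 fell. Over all genes 39.0% rose and 38.8% fell at 19W against 8W, and 34.3% rose and 31.6% fell between 9W and 11W. The rises in both comparisons include the vicilin-like Jr7SG00083500 (9.05 and 5.12) and Jr7SG00083600 (8.71 and 4.48), also counted above as storage proteins. The annotation term for nutrient reservoir activity was given to 7 of the 9 globulin genes and to 35 genes in all, and the orthologous group virNOG11701 to Legumin B, both legumin A genes and Jr2SG00188600 and to 5 genes in all. Those 4 genes were also the 11S genes that fell from 15W to 17W, while both glutelin-named genes, placed in other groups, rose there.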

How the data were processed

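RNA of 21 pellicle samples was prepared by poly(A) selection and rRNA removal and sequenced as stranded, paired-end libraries, per the labels' protocols, which speak of 16 libraries. Per the submitters' processing notes, the tools included DESeq2, Cufflinks, HISAT2 and FastQC, with no role or order. The read counter, its strand setting, the annotation and the genome build were not given in the sources used, so genes that overlap, lie antisense to each other or are near-identical may share reads, and positions are those of the deposited table. The authors deposited whole-number read counts per gene for 31425 genes, 5183 of them at 0 throughout, per the file headers, not normalized. They also deposited FPKM, which equals count over length and column total within a relative deviation of 5.15e-15, per the file headers and values.

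The counts were fitted with edgeR 4.0.16 (limma 3.58.1, R 4.3.3): 1 coefficient per stage over all 21 libraries, TMM factors (0.88 to 1.14), filterByExpr with a minimum count of 10, robust quasi-likelihood tests, and Benjamini-Hochberg adjustment over the 21707 genes tested. Standard errors were obtained by dividing the log2 change's absolute value by the root of F. The common biological coefficient of variation was 0.102. Scripts were tested on simulated counts. Alternatives were scaling by RLE, by upper quartiles or by library size alone, filtering at 1 CPM in 3 libraries or not at all, DESeq2 1.42.0, fits of only the 6 libraries compared, a block for the replicate number, omission of each library in turn and, chosen after seeing the data, leaving out 11W replicate 1 and 13W replicate 3 together.

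The members and gene lists were chosen with earlier results of these data known. Named genes are all 9 members, the 2 genes with most reads of each list, and up to 10 other genes whose libraries most often stand in the order of the globulin sum, ties going to the highest stage mean. Consecutive comparisons share a stage.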

Additional observations from a re-analysis of the deposited data

How the results depend on the processing

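Of the counts of called genes, only those of the globulins at 2 steps moved by over 1.5 times. From 13W to 15W the count of 1 became 2 with DESeq2, 2 in the fit of the 6 libraries alone, 1 to 4 on leaving out single libraries and 6 without 11W replicate 1 and 13W replicate 3, an alternative chosen after seeing the data. From 11W to 13W the count of 4 ran from 2 to 7 on leaving out single libraries. No change of a globulin gene turned its sign under another scaling, filter or tool. On leaving out single libraries, sign changes were seen in 7 differences, none of them called with all libraries. For 15W against 13W the log2 change ran from -0.69 to 0.71 for Jr1DG00199500, from -0.11 to 0.41 for Jr2DG00249800, from -0.29 to 0.98 for Jr2DG00249900 and from -0.86 to 1.05 for Jr2SG00188600. For 13W against 11W it ran from -1.002 to 0.27 for Jr2DG00249900 and from -0.53 to 1.03 for Jr3SG00152400, and for 9W against 8W from -0.16 to 2.09 for Jr4SG00109000, which rests on few reads. In the alternative chosen after seeing the data, sign changes were seen for Jr3SG00152400 at 13W against 11W (0.77) and, at 15W against 13W, for Jr1DG00199500 (0.71) and Jr2SG00188600 (1.05, adjusted p = 0.0346 in edgeR). The cause was not tested.

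With library sizes alone as scaling, the median log2 change of all genes moved to -0.34 for 19W against 8W and to -0.12 for each of 11W against 9W and 13W against 11W, and the rising share of called genes at 19W against 8W went from 50.1% to 36.5%. The replicate numbers did not pair the libraries: same-numbered libraries had correlations of deviations from -0.0426 to 0.0596, and 6 of 21 libraries correlated best with a library of their own number. With the replicate block, 6 globulin genes were called at 17W against 15W in place of 7, the fall of Jr2DG00249800 by 0.80 having an adjusted p of 0.0572 in edgeR, and no other globulin call changed. At 8W, 6 members held from 0 to 29 reads over the 3 libraries, which limits what the step from 8W to 9W can show for them.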
